A study of Mus musculus with 12 samples.

Results

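The 5-hydroxymethylcytosine (5hmC) of newborn mouse heart was compared with that of newborn mouse liver, gene by gene, over 13549 gene bodies and over the 4000 bp window at the start of each gene. The libraries were chosen by their labels, which left 4 of the 12 in the series: 2 of P1 heart and 2 of P1 liver. Both groups were whole organs of C57BL6/j mice, collected at neonatal day 1 to 2 and frozen in liquid nitrogen, and the labels name no transgene, mutation or drug for either. A further 2 libraries were of embryonic stem cells (ESC, the EB5 line of 129/Ola background, grown with LIF). Their read format was the same, paired ends of 75 bp, and they entered the fits to help estimate the spread between replicates. ESC reads also counted toward the minimum of reads that a feature needed, and ESC values toward the constant added before taking logs. Nothing in the labels ties a replicate to its own animal or litter, or says how many animals were pooled. A p-value here thus reflects how far the heart, liver and ESC libraries scattered within their groups, and part of that scatter may be technical.

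Cytosines in CpG sites are methylated by DNA methyltransferases, and Tet enzymes oxidise the methyl group to give 5hmC. In differentiated tissues 5hmC is known to lie over the bodies of genes that the tissue transcribes, and to be low at the CpG-rich starts of active genes. The newborn heart is made mainly of cardiomyocytes, fibroblasts and endothelium, and the newborn liver of hepatocytes together with blood-forming cells that remain from its fetal role. To capture 5hmC, an azide-carrying sugar was placed on it by a phage glucosyltransferase, biotin was attached to the sugar, and the tagged fragments of about 300 bp were pulled down and sequenced. The values are FPKM, that is, reads per kilobase of feature and scaled to the total reads of the library. They rank regions and libraries against each other and are not shares of modified cytosines.

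The libraries held 1273656 and 1084550 reads in P1 heart and 953679 and 3559071 reads in P1 liver, so liver replicate 2 was the deepest. Gene bodies took 60.3% and 56.4% of the reads in heart and 63.3% and 58.6% in liver. The median body held 25 and 19 reads in heart and 23 and 77 in liver, and the median promoter window held 4 and 3 reads in heart and 4 and 13 in liver. Counting alone therefore gives the median body an error of 20% and 22.9% in heart and 20.9% and 11.4% in liver, and the median window 50.0% and 57.7% in heart and 50.0% and 27.7% in liver. Replicates were correlated across genes, which are not independent. Over the 13097 bodies tested r was 0.825 in heart and 0.890 in liver. Over the 1991 bodies of at least 100 kb it was 0.985 in heart and 0.988 in liver. The ESC replicates, which entered the same estimate of spread and held 2016730 and 3963312 reads, correlated at 0.940 and 0.990.

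At equal total reads, most gene bodies had a lower 5hmC signal in heart than in liver, and a smaller set, in which long genes were common, had a higher one. Of 13097 bodies with a mean of at least 5 reads, 973 were higher in P1 heart (7.43% of those tested) and 2631 were lower (20.1%), by limma at an adjusted p below 0.05. The median body had a log2 difference, heart minus liver, of -0.23. When each library was centred on its own median, 2079 bodies were higher (15.9%) and 1241 lower (9.48%), so that 62.6% of the called bodies were higher, against 27.0% without centring. Each of the 973 higher bodies was also higher after centring, and 1241 of the 2631 lower bodies were also lower. The levels of the 2 heart and 2 liver libraries did not overlap, with heart higher, in 17.8% of bodies and, with heart lower, in 44.7%. Differences of more than 2-fold passed the test in 195 bodies that were higher and 858 that were lower. Liver replicate 1 mattered most for the lower calls: without it 739 bodies were higher and 1105 lower. In each of the 4 fits that left out 1 P1 library, 491 of the 973 higher bodies and 928 of the 2631 lower bodies passed again in the same direction. In whole tissue, a lower share of cells of a type and less 5hmC per cell cannot be told apart, and this holds for every difference below.

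The markers tested for cardiomyocytes and hepatocytes lay in the direction of their organ. These markers and the gene lists below were chosen with earlier results of these data known, so their directions are not independent support. Of the cardiomyocyte markers, the bodies of Ttn, Ryr2, Myh6, Actn2 and Tnnt2 were all higher in heart. Nkx2-5, the cardiac homeobox factor, has a body of only 902 bp and did not reach the read minimum. Among hepatocyte markers, Apob, G6pc, Hnf4a, Cps1 and Serpinc1 were all lower in heart. Alb, which encodes serum albumin, had 0.515 and 0.672 FPKM in heart and 1.15 and 1.37 FPKM in liver. Its log2 difference of -0.99 did not pass (limma, adjusted p = 0.0562), although its libraries did not overlap.

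Among bodies of at least 10000 bp that passed with no overlap between the tissues, titin stood furthest above liver; shorter bodies reach larger differences on few reads. Ttn, the giant spring protein of the sarcomere, has a body of 277 kb (mm9 76542041 to 76818604, minus strand; the tables name no chromosome). It had 1.78 and 1.80 FPKM in heart, from 626 and 540 reads, and 0.307 and 0.286 FPKM in liver, from 81 and 282 reads. The log2 difference was 2.29 ± 0.08 (SE), or 4.89-fold (limma, adjusted p = 6.44e-11), and this was also the smallest p of all bodies. Myh6, the alpha myosin heavy chain (mm9 55560758 to 55583444, minus strand), had 2.32 and 2.52 FPKM in heart and 0.601 and 0.619 FPKM in liver. Both Myh6 values in heart were thus above 3 times either value in liver, with a log2 difference of 1.84 ± 0.20 (SE; limma, adjusted p = 9.14e-06).

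A pair of transcription regulators of cardiac development differed about as much. Myocd encodes myocardin, a coactivator of serum response factor, and had 1.55 and 1.51 FPKM in heart and 0.401 and 0.357 FPKM in liver. By limma its log2 difference of 1.80 ± 0.13 (SE) had an adjusted p of 3.42e-07. Tbx5, the T-box factor whose loss causes heart and limb defects, had 1.34 and 1.46 FPKM in heart and 0.346 and 0.341 FPKM in liver, a log2 difference of 1.79 ± 0.17 (SE; limma, adjusted p = 2.98e-06). In neither gene did a heart library come near a liver library.

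The remaining bodies among the 12 furthest above liver were of mixed kinds. Tnni3k, a kinase of cardiac muscle, had 0.603 and 0.649 FPKM in heart and 0.110 and 0.154 FPKM in liver. Gja3, which encodes connexin 46 and is best known from the lens, had 2.11 and 1.58 FPKM in heart and 0.411 and 0.468 FPKM in liver. Popdc3, a Popeye-domain protein of striated muscle, had 1.27 and 1.36 FPKM in heart and 0.386 and 0.279 FPKM in liver. The bodies of Tox3, a high-mobility-group box protein, and of Ppp1r14c, an inhibitor of protein phosphatase 1, were higher in heart by 1.80 and 1.72 on the log2 scale. All of these passed the test with any single P1 library left out. Stmn4, a stathmin of neurons, and Oxtr, the oxytocin receptor, were higher by 1.93 and 1.72, but without liver replicate 1 they did not pass (limma, adjusted p = 0.0807 for Stmn4 and 0.0584 for Oxtr). Six3, a homeobox factor of the forebrain and eye, rested on 4 and 2 reads in heart and was listed at 0 in both liver libraries. Its heart mean was 3.75 times the level that 3 reads over the liver group would give (the floor). Such folds against a floor leave out the counting error of the group with reads, so they are not lower bounds. Six3 reached the read minimum only through the ESC libraries, where it had 1.22 and 1.46 FPKM, so its place among the 12 rests on 6 reads in all P1 libraries. Six3 shares its body with the transcript Six3os1, and reads of the 2 cannot be told apart.

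**Figure D1:**
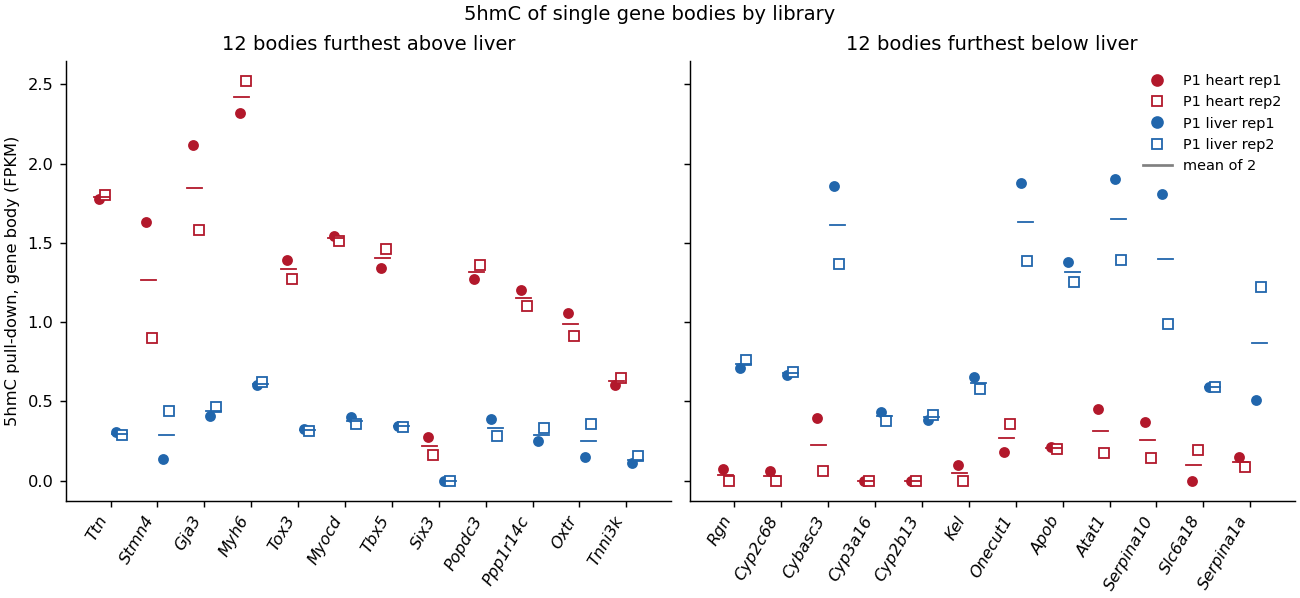
FPKM of the gene body in each P1 heart library (red) and P1 liver library (blue) for the 12 bodies with the largest and the 12 with the smallest log2 difference among bodies of at least 10000 bp that passed without overlap, with bars at the mean of 2. Heart points lie above liver points throughout the left panel, from Ttn at 1.78 and 1.80 FPKM in heart against 0.307 and 0.286 FPKM in liver, and below them throughout the right panel.

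The contractile and electrical apparatus of cardiomyocytes was higher in heart across its parts. For comparison with the counts of this and later lists, 7.43% of all tested bodies were higher and 20.1% lower. Among 9 tested bodies of thick filament and titin genes (11 listed), 7 were higher and none lower, and their median log2 difference stood 1.08 above that of all bodies. Myom2, an M-band protein that ties thick filaments together, had 0.839 and 1.12 FPKM in heart and 0.298 and 0.236 FPKM in liver. Myl2 and Myom1 did not pass: Myl2, the ventricular regulatory light chain, had 2.25 and 1.23 FPKM in heart and 2.10 and 1.42 FPKM in liver. In the thin filament, 4 of 7 tested bodies (9 listed) were higher and 1 was lower, with a median 1.04 above all bodies. Tmod1, which caps actin filaments and whose body overlaps that of Tstd2, had 1.87 and 1.87 FPKM in heart and 0.880 and 0.846 FPKM in liver. Tnnt2, cardiac troponin T, had 3.35 and 2.16 FPKM in heart and 1.12 and 1.20 FPKM in liver (limma, adjusted p = 0.00911), but without liver replicate 1 the adjusted p was 0.0703. Tnni1, slow skeletal troponin I, was higher by 0.82 on the log2 scale and without liver replicate 1 had an adjusted p of 0.0640 by limma. Tnnc1, cardiac troponin C, was the exception, with 2.21 and 1.81 FPKM in heart and 2.95 and 2.63 FPKM in liver. The Tnnc1 call (limma, adjusted p = 0.0287) was lost after median centring, where its adjusted p was 0.255.

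Z-disc and costamere genes, which anchor sarcomeres to each other and to the membrane, had 10 of 16 tested bodies higher (17 listed) and none lower, with a median 0.93 above all bodies. Ldb3, which binds alpha-actinin, had 1.86 and 2.00 FPKM in heart and 0.804 and 0.628 FPKM in liver. Fhl2, a LIM-domain protein of the heart, had 2.06 and 1.94 FPKM in heart and 0.782 and 0.715 FPKM in liver. Actn2, which crosslinks actin where sarcomeres meet, was 2.23-fold higher at 1.55 and 1.41 FPKM in heart and 0.590 and 0.640 FPKM in liver. In each of these 3 genes both heart libraries were above 2 times either liver library, and each passed with any P1 library left out.

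Genes of calcium cycling, which couple excitation to contraction, had 9 of 12 tested bodies higher (14 listed) and none lower, with a median 1.28 above all bodies. These bodies are long, and relative to tested bodies of the same length class the median was 0.94 above, against 1.14 for the thick filament list and 1.11 for the thin filament list. Ryr2, through which stored calcium leaves the reticulum (552 kb, mm9 11645370 to 12197212, minus strand), had 1.01 and 1.12 FPKM in heart and 0.287 and 0.261 FPKM in liver, a log2 difference of 1.67 ± 0.09 (SE; limma, adjusted p = 4.67e-09). Slc8a1, the sodium-calcium exchanger, had 1.49 and 1.5 FPKM in heart and 0.525 and 0.431 FPKM in liver. Jph2, which holds the reticulum close to the T tubule, had 1.88 and 2.24 FPKM in heart and 0.860 and 0.781 FPKM in liver. Atp2a2, the calcium pump that refills the reticulum, differed far less: it had 1.5 and 1.78 FPKM in heart and 1.44 and 1.38 FPKM in liver (limma, adjusted p = 0.288). Its regulator Pln had 0.746 and 0.584 FPKM in heart and 0.498 and 1.69 FPKM in liver, from 6, 4, 3 and 38 reads. Asph, the other member that did not pass, had an adjusted p of 0.0604 by limma.

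Ion channels and the intercalated disc gave 15 of 18 tested bodies higher (19 listed), with a median 0.96 above all bodies. Ctnna3, alpha-T-catenin of the disc (1571 kb, overlapping Lrrtm3), had 0.507 and 0.469 FPKM in heart and 0.192 and 0.152 FPKM in liver. Gjc1, connexin 45 of the conduction system, had 1.39 and 1.42 FPKM in heart and 0.463 and 0.651 FPKM in liver. Kcnj2, an inward rectifier channel, was higher by 2.07 on the log2 scale, but without liver replicate 2 it did not pass (limma, adjusted p = 0.0751). The single member lower in heart was Dsg2, a desmosomal cadherin also made by epithelia, with 0.760 and 0.664 FPKM in heart and 1.06 and 0.980 FPKM in liver. After median centring the Dsg2 call was lost (limma, adjusted p = 0.307).

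Cardiac transcription factors were less uniform, with 10 of 25 tested bodies higher (27 listed), none lower, and a median 0.73 above all bodies. Hey2, a repressor downstream of Notch in the ventricle, showed the largest difference among them, with 1.21 and 1.42 FPKM in heart and 0.124 and 0.233 FPKM in liver, from 13 and 13 reads against 1 and 7. Gata6 was higher, with 1.92 and 1.60 FPKM in heart and 0.910 and 1.08 FPKM in liver, whereas Gata4 had 1.70 and 1.73 FPKM in heart and 1.56 and 1.69 FPKM in liver (limma, adjusted p = 0.735). Both GATA factors act in heart and in liver development. Natriuretic and metabolic genes of heart muscle had 6 of 11 tested bodies higher (17 listed) and none lower. Corin, the protease that activates natriuretic peptides, had 0.927 and 1.03 FPKM in heart and 0.404 and 0.379 FPKM in liver. Mb, the oxygen-binding myoglobin, was higher by 1.08, and Fabp3, the fatty acid binding protein of muscle, by 1.72 on the log2 scale. The Fabp3 body overlaps Zcchc17.

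Among bodies lower in heart, those of hepatocyte enzymes and secreted proteins led. Apob, the protein scaffold of very low density lipoprotein (mm9 7986454 to 8023641, plus strand), had 0.211 and 0.198 FPKM in heart, from 10 and 8 reads, and 1.38 and 1.25 FPKM in liver, from 49 and 166 reads. Its log2 difference was -2.27 ± 0.21 (SE; limma, adjusted p = 1.9e-06). Onecut1, a transcription factor of hepatocyte and bile duct development, had 0.183 and 0.359 FPKM in heart and 1.88 and 1.39 FPKM in liver (log2 difference -2.29; limma, adjusted p = 8.08e-06). In both genes each liver library was above 3 times each heart library.

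Several of the lowest bodies in heart were at or near 0 there. Cyp3a16 and Cyp2b13, cytochromes P450 of drug and steroid metabolism, were listed at 0 in both heart libraries. They met the read minimum through liver and ESC reads alone. Cyp3a16 had 0.434 and 0.376 FPKM in liver, and its liver mean was 9.996 times a floor of 3 reads over the heart group. Cyp2b13 had 0.385 and 0.412 FPKM in liver, and its liver mean was 10.2 times its floor. Cyp2c68 had 4 and 0 reads in heart and 32 and 123 in liver. These P450 genes have near-identical copies, so the authors' counting could have split their reads, and the values are uncertain. Rgn, the calcium-binding protein regucalcin of hepatocytes, had 1 and 0 reads in heart and 7 and 28 in liver. Its heart to liver ratio per total reads was 0.0547, with an exact 95% interval of 0.00135 to 0.325 that covers counting error only. Slc6a18, an amino acid transporter, had a ratio of 0.151 (95% interval 0.0298 to 0.476) and Serpina1a, an alpha-1-antitrypsin gene with near-identical copies, of 0.115 (0.0229 to 0.355). Slc6a18 did not pass without heart replicate 1 or without liver replicate 1, nor Serpina1a without liver replicate 2 (limma, largest adjusted p = 0.0519 for Slc6a18 and 0.0762 for Serpina1a). The last of these 12 bodies were Serpina10, an inhibitor of clotting factor X, Atat1, which acetylates alpha-tubulin, Cybasc3, a cytochrome b561 protein whose body overlaps Dak, and Kel, the Kell blood group antigen. Their log2 differences ran from -2.66 to -2.14, and Kel rested on 2 and 0 reads in heart.

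Lists of proteins that hepatocytes secrete held lower bodies in heart and no higher ones. Coagulation factors and their inhibitors had 14 of 17 tested bodies lower (18 listed) and none higher, with a median 1.21 below all bodies. Kng1, kininogen, had 0.180 and 0.296 FPKM in heart and 1.20 and 1.18 FPKM in liver. F12, the factor that starts contact activation, had 0.459 and 0.674 FPKM in heart and 2.76 and 2.55 FPKM in liver, and Serpinf2, antiplasmin, was lower by 2.34 on the log2 scale in heart. Serpinc1, antithrombin, had 0.806 and 0.823 FPKM in heart and 2.25 and 1.68 FPKM in liver. Complement genes had 10 of 14 tested bodies lower (16 listed) and none higher, with a median 0.63 below all bodies. C3, the central complement protein, had 0.567 and 0.666 FPKM in heart and 2.32 and 2.33 FPKM in liver. C8a, part of the membrane attack complex, was 2.72-fold lower, and C2, whose body overlaps Zbtb12, was 2.85-fold lower. After median centring, 5 of the 14 complement bodies still passed.

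Other plasma protein genes formed the list with the lowest median, 1.38 below all bodies, with 17 of 19 tested bodies lower (22 listed) and none higher. Alb and Ahsg, which encodes fetuin-A, were the members that did not pass. Vtn, vitronectin, had the largest difference on the log2 scale, -3.25, but its body of 1.21 kb held 2 and 0 reads in heart and 3 and 17 in liver, and without heart replicate 2 or either liver replicate it did not pass (limma, largest adjusted p = 0.151). Serpina1b, a near-identical copy of Serpina1a, was lower by 2.83 on the log2 scale and did not pass without liver replicate 1 (limma, adjusted p = 0.0565). Lipid transport genes had 7 of 11 tested bodies lower (21 listed) and none higher. Abca1, the cholesterol exporter, had 0.988 and 0.783 FPKM in heart and 1.95 and 2.00 FPKM in liver. Of the small apolipoprotein genes Apoa1, Apoa2, Apoc3 and Apoe, none was among the bodies tested.

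Metabolic enzymes of hepatocytes followed. Of 26 urea cycle and amino acid genes tested (26 listed), 16 were lower and none higher, with a median 0.88 below all bodies. Cps1, which starts the urea cycle (mm9 67171600 to 67277833, plus strand), had 0.251 and 0.243 FPKM in heart and 0.948 and 0.830 FPKM in liver (log2 difference -1.54 ± 0.15, SE; limma, adjusted p = 3.39e-06). Cth, which makes cysteine, had 0.136 and 0.128 FPKM in heart and 0.618 and 0.702 FPKM in liver, and was 3.40-fold lower. Tdo2, which degrades tryptophan, was the only member with a positive difference, at 0.283 and 0.332 FPKM in heart and 0.126 and 0.270 FPKM in liver (limma, adjusted p = 0.551). In gluconeogenesis and glycogen metabolism 10 of 13 tested bodies (14 listed) were lower, and their median was 1.09 below all bodies. G6pc, glucose-6-phosphatase, had 0.376 and 0.332 FPKM in heart and 2.77 and 1.28 FPKM in liver. Pck1, which makes phosphoenolpyruvate, had 0.743 and 0.436 FPKM in heart and 2.48 and 2.59 FPKM in liver. Pklr, the liver and red cell pyruvate kinase, was 4.00-fold lower, with a body that overlaps Hcn3.

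Cytochrome P450, bile acid and detoxification genes had 10 of 17 tested bodies lower (24 listed). Cyp7a1, which commits cholesterol to bile acids, had 0.294 and 0.115 FPKM in heart and 2.75 and 1.65 FPKM in liver, a log2 difference of -3.00 ± 0.44 (SE; limma, adjusted p = 0.000159) from 3 and 1 reads against 21 and 47. Gsta3, a glutathione transferase, was lower by 2.09 on the log2 scale. Cyp3a11 was listed at 0 in both heart libraries, and its liver mean was 4.73 times the floor. Its call was lost without heart replicate 2, without liver replicate 1 and after median centring. Of 11 hepatocyte transporters (11 listed), 6 were lower. Abcb4, which moves phospholipid into bile, had 0.223 and 0.189 FPKM in heart and 0.892 and 0.787 FPKM in liver, and Abcc2, the bilirubin exporter, had 0.628 and 0.549 FPKM in heart and 2.07 and 1.69 FPKM in liver. Slc25a47, a mitochondrial carrier of liver, was lower by 1.49, but not without heart replicate 2 or liver replicate 1 (limma, largest adjusted p = 0.161). Iron, heme and peroxisome genes had 8 of 11 tested bodies lower (13 listed), among them Cat, catalase, at 1.02 and 1.04 FPKM in heart and 2.61 and 2.40 FPKM in liver. Hfe2, the hemojuvelin gene, was lower by 2.47. Slc40a1, the iron exporter ferroportin, was lower by 1.22, but did not pass without liver replicate 2 (limma, adjusted p = 0.0664).

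Hepatocyte transcription factors had 13 of 20 tested bodies lower (24 listed), none higher, and a median 0.66 below all bodies. After median centring 11 were lower and Nfia, a factor of many tissues, was higher (limma, adjusted p = 0.00122). Hnf4a, a master regulator of hepatocytes, had 0.642 and 0.273 FPKM in heart and 1.88 and 1.61 FPKM in liver (log2 difference -1.84; limma, adjusted p = 2.43e-05). Foxa3, a pioneer factor, had 0.571 and 0.335 FPKM in heart and 2.79 and 2.62 FPKM in liver, the largest difference of the list at -2.41. Atf5, at 1 and 3 reads in heart, was lower by 1.99 and did not pass without heart replicate 1 or without either liver replicate (limma, largest adjusted p = 0.0941). Foxa1 had 0.225 and 0.792 FPKM in heart and 0 and 0.966 FPKM in liver, from 1 and 3 reads against 0 and 12, and no difference could be detected at that depth.

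**Figure D2:**
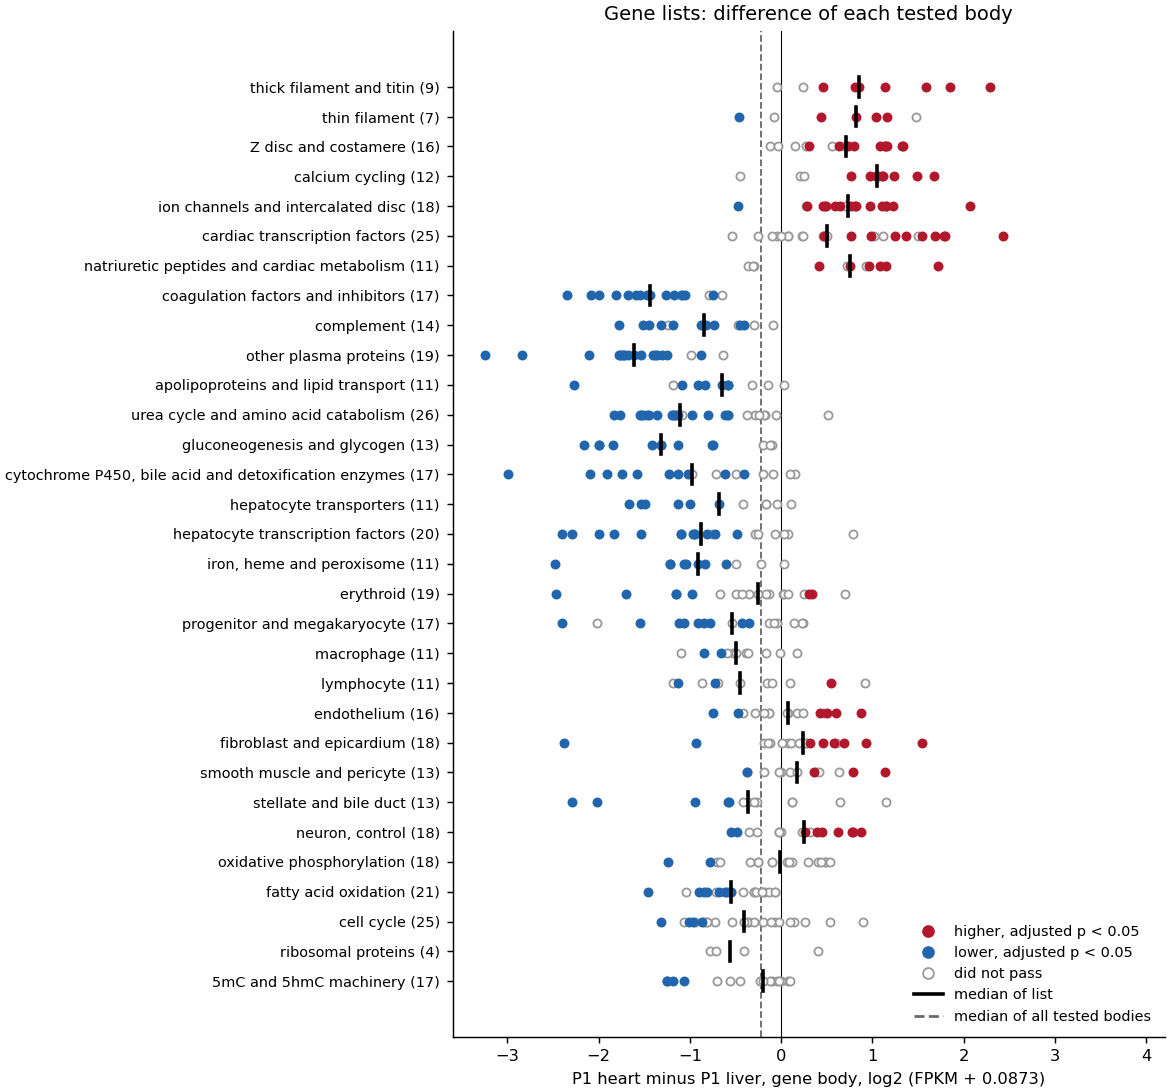
Each point is the log2 difference, P1 heart minus P1 liver, of 1 tested gene body in 31 lists, red where higher and blue where lower at a limma adjusted p below 0.05; tested members are counted in parentheses. The 7 cardiac lists at the top have medians (black bars) right of the median of all bodies at -0.23 (dashed), and the 10 hepatocyte lists below them have medians left of it.

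Blood-forming cells are a known component of newborn liver, and their genes were mixed. Of 19 erythroid bodies tested (23 listed), 5 were lower in heart and 2 higher, against 20.1% and 7.43% of all bodies, and the list median was 0.03 below all bodies. Summed over the list, erythroid bodies came to 18.6 and 16.1 FPKM in heart and 21.2 and 21.9 FPKM in liver. The erythroid markers Gata1, Klf1, Epor and Ank1 did not pass. Gata1, the master erythroid factor, had 0.576 and 0.473 FPKM in heart and 1.00 and 0.783 FPKM in liver (limma, adjusted p = 0.114). None of the 4 was at 0 in heart. Alas2, the first enzyme of erythroid heme synthesis, overlaps Apex2, was lower by 1.70 and did not pass without liver replicate 1 (limma, adjusted p = 0.0954). Rhag, a gas channel of red cells, was lower by 1.15 and did not pass without liver replicate 2 (limma, adjusted p = 0.136) or after median centring.

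Genes of blood progenitors and megakaryocytes gave 9 of 17 tested bodies lower (20 listed) and none higher, with sums of 17.0 and 12.02 FPKM in heart and 22.3 and 20.7 FPKM in liver. Ikzf1, the Ikaros factor of lymphoid and early blood cells, had 0.260 and 0.294 FPKM in heart and 1.08 and 0.879 FPKM in liver (log2 difference -1.54; limma, adjusted p = 5.71e-06). Myb, needed by definitive progenitors, had 0.738 and 0.379 FPKM in heart and 1.39 and 1.15 FPKM in liver, and Gfi1, a repressor of myeloid and stem cells, was lower by 2.40. How much of the lower level in heart comes with the number of blood cells was not tested. Macrophage genes had 2 of 11 tested bodies lower (14 listed), against 20.1% of all bodies, with sums of 5.39 and 3.54 FPKM in heart and 7.02 and 5.46 FPKM in liver. Emr1, which encodes F4/80, had 0.0256 and 0.0225 FPKM in heart and 0.137 and 0.0915 FPKM in liver. It passed with all libraries (limma, adjusted p = 0.0429) and in none of the fits without 1 P1 library, and Ptprc, the leukocyte antigen CD45, did not pass without liver replicate 1 (limma, adjusted p = 0.153). Csf1r, the receptor that macrophages depend on, overlaps Hmgxb3 and did not pass (limma, adjusted p = 0.0530). The Emr1 and Ptprc calls were also lost after median centring.

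Lymphocyte genes had 2 of 11 tested bodies lower and 1 higher (15 listed), against 20.1% and 7.43% of all bodies. Ebf1, a factor of B cells that mesenchymal cells also express, had 0.830 and 0.778 FPKM in heart and 0.553 and 0.494 FPKM in liver (limma, adjusted p = 0.000241). Lck and Zap70, kinases of T-cell receptor signalling, were lower by 1.13 and 0.73 and did not pass without heart replicate 2 for Lck (limma, adjusted p = 0.198) or heart replicate 1 for Zap70 (limma, adjusted p = 0.133), nor without either liver replicate. Zap70 was not called after median centring.

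Genes of cell types that both organs hold were called in both directions. Endothelial genes had 4 of 16 tested bodies higher and 2 lower (18 listed), against 7.43% and 20.1% of all bodies. Their sums of 19.6 and 16.2 FPKM in heart and 18.8 and 17.8 FPKM in liver overlapped. Cdh5, the cadherin of all endothelium, had 1.06 and 0.835 FPKM in heart and 0.923 and 0.852 FPKM in liver (limma, adjusted p = 0.794). Kdr, the VEGF receptor, had 1.40 and 1.14 FPKM in heart and 0.913 and 0.715 FPKM in liver, Tek, the angiopoietin receptor, was higher by 0.50, and Nos3, the endothelial nitric oxide synthase that overlaps Atg9b, was higher by 0.87. Stab1, a scavenger receptor of liver sinusoids that overlaps Nt5dc2, had 2.16 and 1.13 FPKM in heart and 2.85 and 2.56 FPKM in liver. Leaving out a library ended each of these 4 calls: heart replicate 1 or liver replicate 2 for Kdr, either of these or liver replicate 1 for Tek, liver replicate 1 for Nos3, and heart replicate 2 or liver replicate 1 for Stab1 (limma, largest adjusted p = 0.151 for Kdr, 0.0740 for Tek, 0.149 for Nos3 and 0.171 for Stab1).

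Fibroblast and epicardial genes had 6 of 18 tested bodies higher and 2 lower (19 listed), against 7.43% and 20.1% of all bodies. Their sums were 15.4 and 13.2 FPKM in heart and 14.2 and 13.3 FPKM in liver. Tcf21, a factor of cardiac fibroblasts, had no read in any P1 library over its body of 0.85 kb. Tbx18, an epicardial T-box factor, had 0.593 and 0.627 FPKM in heart and 0.119 and 0.191 FPKM in liver, with an adjusted p of 0.00419 by limma, and 0.0529 without liver replicate 1. Fn1, fibronectin, which hepatocytes secrete into plasma, had 1.21 and 1.04 FPKM in heart and 2.27 and 2.17 FPKM in liver (limma, adjusted p = 2.55e-05). Pdgfra, a receptor of fibroblasts, was higher by 0.68 but did not pass without liver replicate 1 (limma, adjusted p = 0.0571), and Col1a1, the main fibrous collagen, had 1.27 and 1.12 FPKM in heart and 1.34 and 0.948 FPKM in liver. Upk3b, a mesothelial gene with 8 and 0 reads in heart, was lower in the full fit and did not pass without heart replicate 2 (limma, adjusted p = 0.547).

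Smooth muscle and pericyte genes had 3 of 13 tested bodies higher and 1 lower (13 listed), against 7.43% and 20.1% of all bodies. Smtn, smoothelin, had 2.46 and 2.19 FPKM in heart and 1.27 and 1.35 FPKM in liver (limma, adjusted p = 0.00475). Des, the intermediate filament desmin, was higher by 1.14 and did not pass without heart replicate 1 or either liver replicate (limma, largest adjusted p = 0.121). Pdgfrb, a pericyte receptor, was lower by 0.38 and passed in no fit without 1 P1 library, nor after median centring (limma, adjusted p = 0.543). Stellate and bile duct genes had 5 of 13 tested bodies lower (14 listed), against 20.1% of all bodies. Their sums were 5.99 and 7.18 FPKM in heart and 10.01 and 8.09 FPKM in liver. Onecut1, described above, is a member of this list as well as of the hepatocyte factor list. Spp1, osteopontin, had 0 and 1 reads in heart and 3 and 6 in liver, and its ratio of 0.213 had an interval of 0.00485 to 1.53, which includes 1; the Spp1 call was lost without heart replicate 1, without either liver replicate (limma, largest adjusted p = 0.243) and after centring.

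Neuronal genes were listed as a control that neither organ should express strongly, but the control is not clean, since Rbfox1 is also a gene of muscle. They had 7 of 18 tested bodies higher and 2 lower (20 listed). Of all bodies, 7.43% were higher and 20.1% lower. The list median was 0.48 above all bodies. Relative to tested bodies of the same length class the median was 0.26 above; these genes are long, with a median body of 59514 bp. Their levels were low, with sums of 9.26 and 8.41 FPKM in heart and 8.31 and 7.46 FPKM in liver. Rbfox1, a splicing factor of neurons and muscle with a body of 601 kb, had 0.490 and 0.403 FPKM in heart and 0.216 and 0.230 FPKM in liver (limma, adjusted p = 3.15e-05). Syt1, the calcium sensor of synaptic vesicles, was higher by 0.45, and Elavl4, an RNA-binding protein of neurons, by 0.87. Gad1, which makes GABA, was higher by 0.78 but not without liver replicate 1 (limma, adjusted p = 0.132). Syn1, synapsin, had 0.174 and 0.173 FPKM in heart and 0.161 and 0.187 FPKM in liver.

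Lists of general metabolism and growth had no body higher in heart, against 7.43% of all bodies. Of 18 oxidative phosphorylation bodies tested (24 listed), 2 were lower, against 20.1% of all bodies, and none was called after median centring. The median of this list was 0.21 above all bodies, and 9 of its 18 differences were positive. Sdhd, a subunit of complex II, had 0.712 and 1.34 FPKM in heart and 2.28 and 2.60 FPKM in liver, and its call was lost after centring (limma, adjusted p = 0.0657), without heart replicate 1 and without either liver replicate. Fatty acid oxidation genes had 8 of 21 tested bodies lower (25 listed), against 20.1% of all bodies, and 2 after centring. Their median was 0.32 below all bodies. Slc25a20, the carnitine carrier, and Etfdh, which passes electrons from fatty acid oxidation to the respiratory chain, were lower by 0.90 and 0.84, but they did not pass without liver replicate 1 or after centring (limma, adjusted p after centring = 0.0839 for Slc25a20 and 0.139 for Etfdh). Cell cycle genes had 4 of 25 tested bodies lower (28 listed), against 20.1% of all bodies, and a median 0.18 below all bodies. Birc5, survivin, had 0.701 and 0.823 FPKM in heart and 2.11 and 1.94 FPKM in liver, and Mcm7, of the replicative helicase, and Aurka, a mitotic kinase, were lower by 1.01 and 0.96. Without liver replicate 1 these 3 did not pass (limma, adjusted p = 0.0958 for Birc5, 0.0745 for Mcm7 and 0.0927 for Aurka), nor did Birc5 without liver replicate 2. Ribosomal protein genes are mostly too short: of 25 listed, 4 were tested and none passed, and Rpl3 had 2.17 and 1.02 FPKM in heart and 3.18 and 2.17 FPKM in liver.

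Enzymes that write, keep or remove cytosine methylation had 4 of 17 tested bodies lower (21 listed) and none higher, against 20.1% and 7.43% of all bodies, and the list median was 0.02 above all bodies. Uhrf1, which brings Dnmt1 to replicated DNA, had 0.821 and 0.711 FPKM in heart and 2.08 and 1.81 FPKM in liver (limma, adjusted p = 0.000106), and Dnmt1 itself was also lower. Apobec1, the cytidine deaminase that edits Apob RNA, was lower by 1.25, and Idh1, which makes the cosubstrate of Tet enzymes, by 1.18. Tet2, the Tet gene that was tested, had 0.828 and 0.808 FPKM in heart and 0.999 and 0.782 FPKM in liver (log2 difference -0.10; limma, adjusted p = 0.622). These are levels of 5hmC over the genes and not of their products.

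The direction of the difference went with the length of the body. In bodies below 5 kb the median log2 difference was -0.34, and 2.16% of 1067 tested bodies were higher in heart and 10.4% lower. From 5 to 50 kb the medians were -0.32, -0.32 and -0.29. From 50 to 100 kb the median was -0.19, from 100 to 200 kb it was -0.04, and in the 810 bodies of at least 200 kb it was 0.14, with 33.0% higher and 11.2% lower. After median centring, higher and lower calls numbered 51 and 62 below 5 kb, 93 and 146 at 5 to 10 kb, 149 and 245 at 10 to 20 kb, and 394 and 445 at 20 to 50 kb. They numbered 407 and 220 at 50 to 100 kb, 462 and 95 at 100 to 200 kb, and 523 and 28 at 200 kb or more. The longest class stood 0.49 above the shortest on the log2 scale, a gap that no centring of libraries can change. Each of the 4 possible pairs of a heart and a liver library gave a higher median in the longest class than in any other class: the values there were 0.06 to 0.22, against -0.48 to -0.15 in the shortest. Without heart replicate 2 the gap was 0.34.

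The power to call a difference also grew with length, since longer bodies hold more reads. The median body below 5 kb held 5 and 4 reads in heart and 5 and 18 in liver, and the median body of at least 200 kb held 238 and 191 reads in heart and 151 and 527 in liver. In all 12.6% of the shortest and 44.2% of the longest bodies were called in either direction, and the median absolute log2 difference of a called body was 1.86 in the shortest class and 0.52 in the longest. Among tested bodies, both tissues had less 5hmC per kilobase in longer ones. The read minimum kept 1067 of 1380 bodies below 5 kb and 810 of 810 at 200 kb or more. It can thus raise the medians of short bodies. Median levels below 5 kb were 1.39 and 1.19 FPKM in heart and 1.69 and 1.60 FPKM in liver, and at 200 kb or more they were 0.524 and 0.488 FPKM in heart and 0.460 and 0.427 FPKM in liver. Heart libraries were below both liver libraries in every class up to 100 kb and above both in the longest class.

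**Figure D3:**
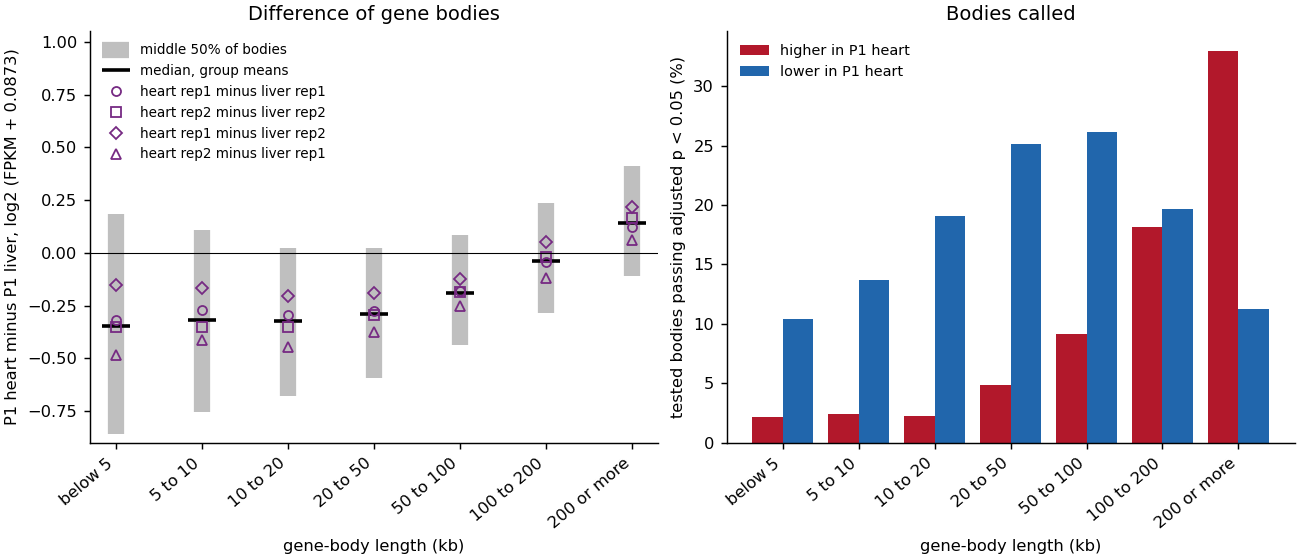
Left, log2 difference of gene bodies, P1 heart minus P1 liver, by body length in kb: grey bars span the middle 50% of tested bodies, black marks are medians and open symbols the medians of the 4 heart-liver library pairs. Right, the share of tested bodies higher (red) and lower (blue) in P1 heart at a limma adjusted p below 0.05, without centring of the libraries. Higher calls outnumber lower ones only at 200 kb or more (33.0% and 11.2%); after median centring they do so from 50 kb upward.

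The following bodies with the smallest p-values were chosen after their values were seen. Among those higher in heart, besides Ttn and Ryr2, was Cdh13, the membrane-anchored T-cadherin (1039 kb), with 0.940 and 0.854 FPKM in heart and 0.283 and 0.257 FPKM in liver (limma, adjusted p = 4.67e-09). Fhod3, a formin that builds cardiac sarcomeres (422 kb), had 1.19 and 1.08 FPKM in heart and 0.311 and 0.302 FPKM in liver, and Ror2, a receptor for Wnt5a, had 1.89 and 1.95 FPKM in heart and 0.666 and 0.591 FPKM in liver. In the other direction, Rbm47, an RNA-binding protein that partners Apobec1, had 0.843 and 0.770 FPKM in heart and 2.04 and 2.02 FPKM in liver (limma, adjusted p = 1.34e-07). Rnf43, which removes Wnt receptors, had 0.580 and 0.563 FPKM in heart and 1.89 and 1.83 FPKM in liver, and Ass1, of the urea cycle, had 0.875 and 0.780 FPKM in heart and 2.27 and 2.61 FPKM in liver.

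The 4 longest bodies had small log2 differences. In Dmd and Cntnap2 the levels were of the same order as the pseudocount of 0.0873, which shrinks the log2 difference. Dmd, dystrophin (2255239 bp), had 0.124 and 0.125 FPKM in heart and 0.0842 and 0.0828 FPKM in liver, a log2 difference of 0.31 (limma, adjusted p = 0.0150) that did not pass without heart replicate 2 or liver replicate 1 (largest adjusted p = 0.0552, limma). Ptprd, a receptor phosphatase of neurons (2070514 bp), was higher by 0.32 and had an adjusted p of 0.0621 by limma without liver replicate 2. Cntnap2, a neuronal adhesion protein (2239309 bp), had 0.107 and 0.0898 FPKM in heart and 0.0913 and 0.0865 FPKM in liver. The longest listed body carried the name Fgfr2 and 3007069 bp, where the RefSeq gene has 104358 bp, and it spanned 23 other listed bodies. Its value therefore does not measure Fgfr2 alone. In all, 548 bodies were longer than the RefSeq gene of the same name.

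Promoter windows showed the same general direction with far less power. The window abuts the body and covers 4000 bp, reaching about 2 kb into the gene. Of 9736 windows with a mean of at least 5 reads, none was higher and 6 were lower in heart (0.0616%) by limma at an adjusted p below 0.05, and at an unadjusted p below that value 303 were higher and 1358 lower. After median centring none was higher and 4 were lower (0.0411%). Heart and liver libraries did not overlap in 10.1% of windows with heart higher and in 37.5% with heart lower. The median log2 difference of windows was -0.42. The call depended on the library set: without heart replicate 1, 20 windows were higher and 545 lower, and without liver replicate 1, 0 and 1. With limma voom on the recovered reads, which scales libraries by their totals within windows, 163 were higher and 14 lower.

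The windows called included those of Adcy6, Smpd4, Itgb7, Ostb and Mst1. Of the 6 called, 5 held no read in either heart library, as did 38 of all windows tested. These empty windows met the read minimum through liver and ESC reads alone. The liver libraries together held more reads than the heart libraries, and 8 tested windows were empty in both liver libraries. Among the named windows only that of Mst1 had reads in heart. The window of Adcy6, an adenylyl cyclase of heart and other tissues (mm9 98436065 to 98440064, minus strand), had 2.88 and 3.16 FPKM in liver, from 11 and 45 reads. Its liver mean was 9.50 times a floor of 3 reads over the heart group, and it passed as lower in heart (limma, adjusted p = 0.000145). The Adcy6 body was alike, with 2.66 and 2.54 FPKM in heart and 2.41 and 2.66 FPKM in liver (limma, adjusted p = 0.890). The Adcy6 window was the only one of the 6 that passed with any single P1 library left out. In the window of Smpd4, a sphingomyelinase, the liver mean was 6.85 times the same floor. It was 5.04 times the floor for Itgb7, an integrin of leukocytes, and 4.24 times for Ostb, a bile acid transporter subunit. Without liver replicate 1 none of these passed (limma, adjusted p = 0.380 for Smpd4, 0.0598 for Itgb7 and 0.491 for Ostb). Mst1, a growth factor that hepatocytes secrete, had 0.785 and 0.461 FPKM in its window in heart and 4.19 and 3.93 FPKM in liver (limma, adjusted p = 0.0341, and 0.491 without liver replicate 1).

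RefSeq sequence of assembly GRCm38.p6, 250 bases before to 50 after the start of the gene, was matched for 4 of these 6 genes. It is shown because 5hmC is made from methylated CpG sites, and these stretches differ in their number of CpG. Each is written 5′ to 3′ along the gene's strand, with every CpG (the letters CG, the same on both strands) in capitals. The spans are chr16:17619104-17619403 on the plus strand for Smpd4, chr15:102231886-102232185 on the minus strand for Itgb7, chr9:65422724-65423023 on the minus strand for Ostb and chr9:108080186-108080485 on the plus strand for Mst1.
Smpd4: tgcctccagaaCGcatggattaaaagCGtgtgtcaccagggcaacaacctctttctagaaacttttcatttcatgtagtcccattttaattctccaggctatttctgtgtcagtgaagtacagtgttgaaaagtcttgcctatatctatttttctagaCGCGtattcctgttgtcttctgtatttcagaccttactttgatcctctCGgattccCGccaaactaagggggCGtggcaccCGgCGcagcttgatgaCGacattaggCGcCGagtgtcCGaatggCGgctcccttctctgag
Itgb7: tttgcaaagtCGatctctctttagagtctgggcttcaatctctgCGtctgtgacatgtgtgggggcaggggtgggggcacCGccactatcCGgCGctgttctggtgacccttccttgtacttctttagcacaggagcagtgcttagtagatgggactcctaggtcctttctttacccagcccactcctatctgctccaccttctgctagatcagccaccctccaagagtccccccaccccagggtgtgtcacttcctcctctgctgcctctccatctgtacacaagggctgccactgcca
Ostb: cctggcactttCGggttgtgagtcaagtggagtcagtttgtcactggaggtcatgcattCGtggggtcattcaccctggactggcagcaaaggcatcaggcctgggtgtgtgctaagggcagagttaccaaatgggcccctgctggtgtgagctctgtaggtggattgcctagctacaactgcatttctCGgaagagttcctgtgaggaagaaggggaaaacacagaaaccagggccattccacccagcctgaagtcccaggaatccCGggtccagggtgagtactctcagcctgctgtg
Mst1: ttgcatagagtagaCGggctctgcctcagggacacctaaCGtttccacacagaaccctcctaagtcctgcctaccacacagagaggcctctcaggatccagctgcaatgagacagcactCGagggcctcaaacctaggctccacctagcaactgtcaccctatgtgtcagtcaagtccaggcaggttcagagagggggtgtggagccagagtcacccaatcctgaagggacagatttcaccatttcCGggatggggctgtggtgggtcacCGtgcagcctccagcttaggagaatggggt

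Smpd4 holds 14 CpG sites in these 300 bases, Itgb7 and Mst1 hold 5 each and Ostb holds 4. Among 22862 genes with a single RefSeq start the median is 7, and 65.5% have as many as Smpd4 or fewer, 45.1% as many as Itgb7 or Mst1 or fewer, and 39.7% as many as Ostb or fewer. The 4000 bp windows are wider than these stretches, and the reads counted in liver need not lie within them.

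The balance between promoter window and body was also shifted between the tissues. Over 7242 genes with bodies of at least 10000 bp and both parts tested, the summed window FPKM was 1.01 and 1.00 times the summed body FPKM in heart and 1.12 and 1.12 times in liver. The median log2 ratio of body to window was 0.00 and 0.04 in the heart libraries and -0.14 and -0.16 in the liver libraries, so the 2 tissues did not overlap. With 2 libraries against 2, no exact permutation test over libraries could pass a threshold of 0.05, and none is given. Gene by gene, the median difference of that ratio, heart minus liver, was 0.19, and 4 genes passed, all higher (0.0552%; limma, adjusted p below 0.05) and all with an empty window in heart, among them Adcy6, Smpd4 and Itgb7. After centring 3 passed (0.0414%). At an unadjusted p below 0.05, 603 genes were higher and 249 lower. Without liver replicate 1 a single gene passed, and without heart replicate 1, 193 were higher and 7 lower.

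Along the length classes, windows followed the bodies of their genes. The median log2 difference of windows was -0.49 for genes with bodies below 5 kb, -0.46 at 20 to 50 kb, -0.22 at 100 to 200 kb and -0.06 at 200 kb or more. Median window levels below 5 kb were 0.981 and 0.922 FPKM in heart and 1.31 and 1.12 FPKM in liver, and at 200 kb or more they were 0.589 and 0.461 FPKM in heart and 0.524 and 0.492 FPKM in liver, where the tissues overlapped. The median body levels of those longest genes did not overlap between the tissues, with both heart libraries above both liver libraries.

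The lists behaved less clearly in windows. Thin-filament genes had a median window difference of 0.66 over 7 windows, ion channel genes 0.41 over 11, and calcium cycling genes -0.23 over 9, against -0.42 for all windows. Complement genes had a median of -1.39 over 12 windows and plasma protein genes -0.79 over 15. Hepatocyte transcription factors, at -0.20 over 16 windows, and lipid transport genes, at -0.23 over 10, lay above the median of all windows. No window of these lists passed the test.

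**Figure D4:**
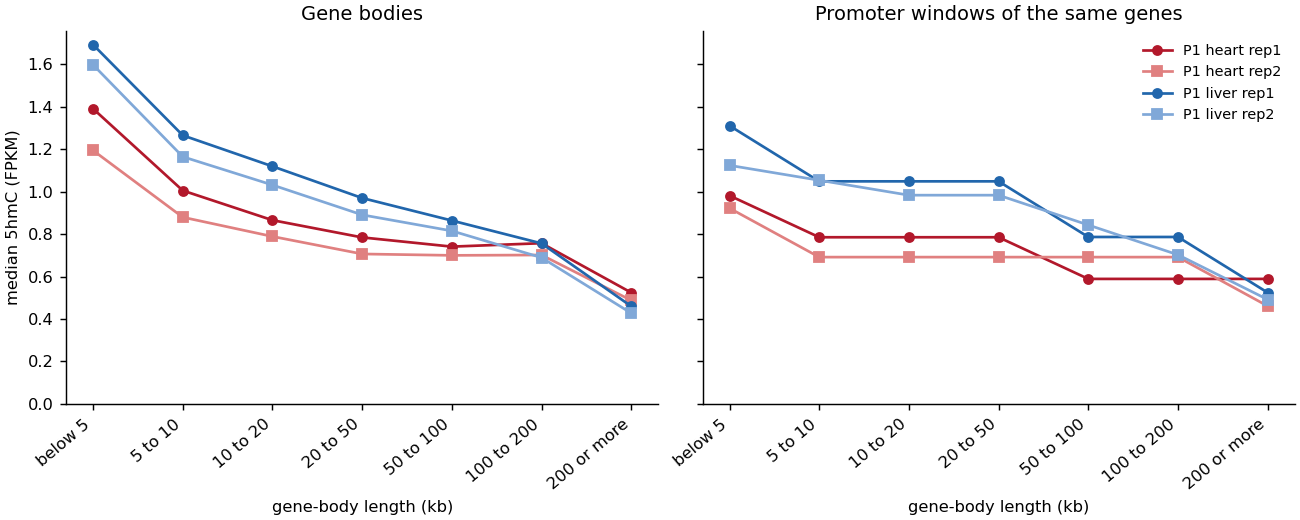
Median FPKM of gene bodies (left) and of the promoter windows of the same genes (right) in each P1 heart library (red shades) and P1 liver library (blue shades), by body length in kb. In bodies the heart libraries lie below both liver libraries up to 100 kb and above them at 200 kb or more (0.524 and 0.488 FPKM in heart, 0.460 and 0.427 FPKM in liver); window medians move in steps because they rest on few reads.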

How the data were processed

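5hmC pull-down libraries were made with the hMe-Seal method, and the 2 P1 heart, 2 P1 liver and 2 ESC libraries, all sequenced as paired ends, were used here. The authors deposited FPKM per gene, per the file headers, for the gene body and for a 4000 bp promoter window; mm9 and Bowtie2 are named in the submitters' processing notes, and no source used here gives the counter, its strand setting or any version. Every FPKM came out as a whole number of reads within 0.01 reads, which gave the depth. Deposited FPKM were turned into log2(FPKM + pseudocount), with a pseudocount of 0.0873 for bodies and 0.0786 for windows, so the differences of low genes are understated. Features with a mean of at least 5 reads over the 6 libraries were fitted by group with limma 3.58.1 in R 4.3.3, with a variance trend on mean reads, and p-values were adjusted over all features by Benjamini-Hochberg at 0.05. The fits were also run on simulated reads with a fixed spread beyond counting error and no overall shift between the tissues. That run does not measure the error rate in these data, and its outcome is not given here. The other 6 libraries entered only under alternatives. The window abuts the body and does not overlap it in the 13558 genes with coordinates; 1208 bodies overlap another gene's body. Intervals cover counting error only. Floors of 3 reads cover the counting error of the group at 0 and leave out that of the other group.

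Genes named were the 12 largest and 12 smallest differences among bodies of at least 10000 bp that passed without overlap between tissues, all called windows, up to 3 members of each list, the 4 longest bodies, Tet genes and cell type markers; some of these are not reported here, and others are said to be chosen after their values were seen or complete a list. The members, lists and rules were chosen with earlier results of these data known. The labels do not say whether replicate numbers pair the samples, and the reported fits did not pair them. Deviations of libraries with the same number correlated at -0.0047 to 0.038 over all bodies tested. Over bodies of at least 100 kb they correlated at 0.035 to 0.087. Counting error is part of these deviations, so low correlations cannot show that the samples were unpaired.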

Additional observations from a re-analysis of the deposited data

How the results depend on the processing

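For gene bodies (973 higher and 2631 lower as reported), all 12 libraries gave 338 and 945, median centring 2079 and 1241, quantile normalization 1932 and 1333, a variance trend on FPKM 403 and 1001, no trend 399 and 1022, limma voom 1475 higher, and thinning to equal depth, added after seeing the data, 597 and 1233. Leaving out 1 library gave 710 to 1034 higher and 1105 to 3139 lower. With the 4 P1 libraries alone, 782 bodies were higher and 1969 lower. No body called here was called in the opposite direction under any of 21 settings. The gap between the longest and the shortest bodies (0.487) was 0.387 with the pseudocount divided by 3, and 0.342 to 0.537 without 1 library. For promoter windows (0 higher, 6 lower), a pseudocount divided by 3 gave 20 higher and 109 lower, divided by 30 gave 12 lower, a minimum of 20 reads gave 2 and 17, the 4 P1 libraries alone 3 lower, all 12 libraries 0 lower, all but 8-week heart replicate 2 gave 8 and 66, quantile normalization 1 higher, a trend on FPKM 3 lower, no trend 10 lower, voom 163 and 14, thinning 1 lower, and leaving out 1 library 0 to 20 higher and 1 to 545 lower. For body minus promoter (4 higher, 0 lower), higher counts were 2 with the pseudocount divided by 3 or with no trend, 1 with the P1 libraries alone or thinned, and 0 with at least 20 reads, all 12 libraries, a trend on FPKM or bodies of at least 50000 bp; all libraries but 8-week heart replicate 2 gave 1 lower, and leaving out 1 library gave 1 to 193 higher and 0 to 7 lower. The causes were not tested. With the replicate block, 1106 bodies were higher and 2931 lower, 971 and 2628 of them shared with the reported calls. Whether the replicate numbers pair the samples cannot be told from these libraries. Of 31 lists, 27 kept the sign of their median relative to all bodies; erythroid, lymphocyte, ribosomal and methylation machinery lists did not. The median P1 window held 3 to 13 reads, which limits the precision of windows.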

Other observations

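The median X-linked body had 0.288 and 0.290 times the FPKM of the median autosomal body in the P1 heart libraries and 0.329 and 0.309 times in the P1 liver libraries. Of 349 X-linked bodies tested, 7 were higher and 40 lower in heart by limma, 13.5% in all. Of 12628 autosomal bodies, 955 were higher and 2571 lower, 27.9% in all. The difference between these shares was not tested. X-linked bodies held fewer reads per kilobase, which lowers the power to call a difference, so the shares cannot be compared directly. The median log2 difference, heart minus liver, was -0.24 for X-linked and -0.23 for autosomal bodies.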
